A study of Mus musculus with 4 samples.

Results

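The genes described here encode proteins of the cytosolic ribosome. They were taken from the GENCODE vM21 annotation of the mouse genome as the protein-coding genes whose symbol begins with Rpl or Rps followed by a digit, or with Rplp or Rpsp. Of the 101 symbols that match, the 10 Rps6k kinase genes and 6 genes named -ps were left out, which leaves 85 of 21938 protein-coding genes. The symbol rule uses no measured value, but the members were chosen with earlier results of these data known. Of the 85, 76 are canonical subunits (30 of the small and 46 of the large subunit), and 9 are paralogs or associated proteins: Rpl3l, Rpl10l, Rpl39l, Rpl22l1, Rpl36al, Rpl7l1, Rps27l, Rps27rt and Rps19bp1.

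The data are 4 lists of peaks, 2 from liver and 2 from yolk sac of mouse embryos at E14.5, made from PRO-seq, a run-on assay that maps RNA polymerases engaged in transcription. The embryos of both tissues came from C57BL/6J females and males of a mixed C57BL/6J and CAST/EiJ background that carried only CAST/EiJ variants at Dlk1/Gtl2 (chromosome 12). The labels give no other treatment or genotype to separate the groups, which differ in tissue. Each library is a single pool of tissue from 6 embryos, with the run-on made on isolated chromatin, and nothing in the labels says which embryos or litters the 2 pools of a tissue share. The spread between the 2 libraries of a tissue is therefore the spread between pools. The file names carry dREG, the name of a classifier that finds transcription start regions at promoters and enhancers from run-on reads. Each list gives the position of every peak and a score without a unit. The score is not scaled between libraries and is not an amount of transcription, so it was used only as a percentile, the share of the list's peaks that score no higher. The list lengths are 24863 and 24333 peaks for liver 1 and liver 2, and 50525 and 43055 for yolk sac 1 and yolk sac 2. They carry no read counts, so the depth is unknown.

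Every cell needs the cytosolic ribosome to make protein. A small subunit decodes the mRNA and a large subunit joins the amino acids. The genes for its proteins are spread over the genome, are transcribed in nearly all cells, and many host small nucleolar RNAs in their introns. Their mRNAs begin with a run of C and T, the 5′ terminal oligopyrimidine, through which their translation is tied to growth signals. At this stage the fetal liver is the main site of red cell formation and the yolk sac is an absorptive epithelium over mesenchyme and vessels. Mutations in several ribosomal protein genes cause Diamond-Blackfan anaemia, a failure of red cell formation.

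The start regions of 10 members are shown because they include the main forms that the lists hold: promoters with a peak in all 4 lists, with and without a pyrimidine run, and the promoters of 2 paralogs without a peak. They are RefSeq promoter sequences on GRCm38.p6, 50 bases before the start and 25 from it onward, written 5′ to 3′ on the strand of the gene. Capitals mark each unbroken run of at least 7 C or T that overlaps the 30 bases on either side of the start.
Rps6: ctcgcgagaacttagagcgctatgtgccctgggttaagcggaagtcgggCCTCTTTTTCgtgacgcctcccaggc
Rps10: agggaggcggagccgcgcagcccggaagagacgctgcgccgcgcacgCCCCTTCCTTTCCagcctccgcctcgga
Rpl28: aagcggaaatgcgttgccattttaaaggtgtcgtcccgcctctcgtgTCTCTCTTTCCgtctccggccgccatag
Rpl15: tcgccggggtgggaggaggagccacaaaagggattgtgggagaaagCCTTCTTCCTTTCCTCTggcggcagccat
Rpl7a: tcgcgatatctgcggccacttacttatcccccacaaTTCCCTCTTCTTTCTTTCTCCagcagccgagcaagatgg
Rpl38: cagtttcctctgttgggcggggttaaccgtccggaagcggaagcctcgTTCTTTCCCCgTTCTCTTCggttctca
Rplp0: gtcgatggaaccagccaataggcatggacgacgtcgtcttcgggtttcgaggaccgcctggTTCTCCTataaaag
Rps4x: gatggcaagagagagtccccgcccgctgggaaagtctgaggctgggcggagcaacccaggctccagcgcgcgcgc
Rpl3l: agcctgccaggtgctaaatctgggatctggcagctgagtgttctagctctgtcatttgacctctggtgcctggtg
Rpl10l: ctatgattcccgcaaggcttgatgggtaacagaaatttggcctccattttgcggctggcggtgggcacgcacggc
Their positions are Rps6 chr4:86857343-86857417 on the minus strand, Rps10 chr17:27635220-27635294 on the minus strand, Rpl28 chr7:4792915-4792989 on the plus strand, Rpl15 chr14:18270962-18271036 on the minus strand, Rpl7a chr2:26910757-26910831 on the plus strand, Rpl38 chr11:114668530-114668604 on the plus strand, Rplp0 chr5:115559417-115559491 on the plus strand, Rps4x chrX:102189367-102189441 on the minus strand, Rpl3l chr17:24727776-24727850 on the plus strand and Rpl10l chr12:66284377-66284451 on the minus strand. The runs of Rps6, Rps10, Rpl28 and Rpl15, and the first run of Rpl38 in capitals, begin 1 to 4 bases before the annotated start. In Rpl7a the run begins 14 bases before it, and in Rplp0 a short run overlaps the letters TATAAA. No run of this length is in the shown stretches of Rps4x, Rpl3l and Rpl10l.

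RefSeq promoters were matched by symbol for 65 of the 85 members and 16522 protein-coding genes. Promoters on chromosome 18 were left out before the match, so Rps14 and Rpl17 are not among the 65. A run of at least 7 C or T that overlaps the 30 bases on either side of the start, on the gene's own strand, was present in 50 of the 65 members, or 76.9%. The same was true of 42.1% of all matched genes and of 40.2% of the 9310 genes called in all 4 lists. The letters CCGGAAG, the core bound by ETS factors, were found on either strand within the window of 250 bases before to 50 after the start in 25 members (38.5%), against 13.4% of all matched genes and 21.2% of those called in all 4 lists. The letters GCCATCTT of the factor YY1 were found in 6 members (9.23%), against 3.64% and 5.50%. The letters TATAAA of a TATA box were found in 7 members (10.8%), against 14.3% and 8.43%. The letters GGGCGG of a GC box were found in 40 members (61.5%), against 51.0% and 71.1%. All 4 motifs were searched on both strands. A match describes letters and shows no binding. The median GC content of the members' windows was 57.0%, against 61.3% in genes called in all 4 lists, and the median number of CpG was 21 in both. The whole window lay inside a peak in each of the 4 lists for 54 of the 65 members, or 83.1%, against 46.3% of all matched genes. Among genes called in all 4 lists, this held for 54 of 61 members, or 88.5%, against 82.0% of all such genes.

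A promoter peak was called at nearly every ribosomal protein gene in both tissues. A gene was counted as called in a list where a peak lay within 500 bp of any of its annotated starts. The members called numbered 80 in liver 1, 80 in liver 2, 81 in yolk sac 1 and 80 in yolk sac 2, which is 94.1%, 94.1%, 95.3% and 94.1% of the 85. Over all protein-coding genes the shares were 56.1%, 57.9%, 63.8% and 62.5%. The members' mean share was 94.1% ± 0.00 for liver and 94.7% ± 0.832 for yolk sac (SD, n = 2). The same 80 members were called in all 4 lists, where the background was 53.8% of all genes. None was called in both liver lists alone (background 1.01%) or in both yolk sac lists alone (background 5.26%), and 4 were called in none (background 34.2%). All 30 canonical small subunit members and 45 of the 46 canonical large subunit members were called in all 4 lists. A separate list of 4 other ribosome subunit genes, which are not among the members, was also called in all 4 lists. Among genes that work beside the ribosomal proteins, 27 of 27 translation factors, 32 of 32 ribosome biogenesis factors and 77 of 78 mitochondrial ribosomal protein genes were also called in all 4 lists.

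When each list was held to its 24333 highest-scoring peaks, the length of the shortest list, the 2 tissues differed. The cut left liver 2 whole and liver 1, with 24863 peaks, nearly whole. It took far more peaks from the yolk sac lists, so calls could fall almost only there. The members called were then 80 and 80 in liver, and 62 and 70 in yolk sac, or 72.9% and 82.4%. Over all protein-coding genes the shares were 55.9% and 57.9% for liver, and 53.2% and 56.6% for yolk sac. Both yolk sac values of the members lay below both liver values, a direction that the cut itself favoured. With lists of unequal length and unknown depth, a lower rank of these promoters in yolk sac and a longer list of other high-scoring peaks there cannot be told apart. Since these are bulk tissues, a difference in the kinds of cells and a difference within cells cannot be told apart either.

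**Figure D1:**
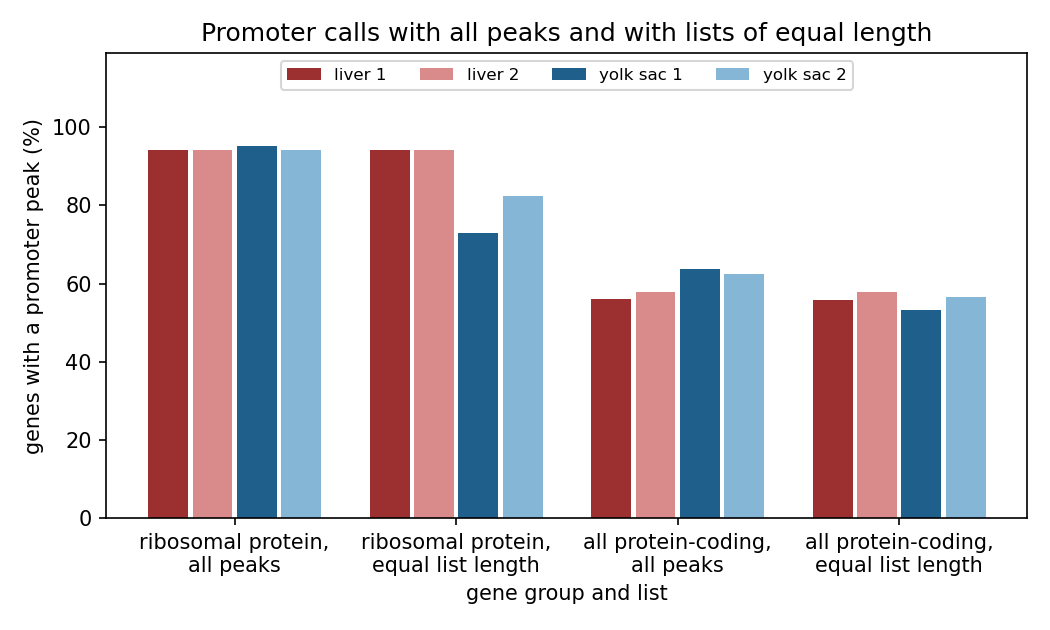
Share of genes with a promoter peak (y axis, %) in each of the 4 libraries, for the 85 ribosomal protein genes and all protein-coding genes, with all deposited peaks and with each list held to the length of the shortest. The members' bars stand at 94.1% to 95.3% with all peaks, and with equal length they stand at 94.1% in liver and at 72.9% and 82.4% in yolk sac. The cut to equal length left the liver lists whole or nearly whole.

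The 5 members without a peak in at least 1 list were Rpl10l, Rpl39l, Rpl3l, Rps27rt and Rpl36. The first 4 are paralogs and had no peak in any list. Rpl3l is a muscle form of the large subunit protein Rpl3, and Rpl10l and Rpl39l are forms of Rpl10 and Rpl39 made in the male germ line. The peak nearest to the principal start of Rpl10l lay at least 271449 bp away, that of Rpl39l at least 22123 bp, that of Rpl3l at least 3068 bp and that of Rps27rt at least 2187 bp. Their parent genes Rpl3, Rpl10, Rpl39 and Rps27 were called in all 4 lists. The exception among canonical subunits was Rpl36, a small protein of the large subunit (17, 56613416 to 56614243, plus strand). In yolk sac 1 a peak from 56613151 to 56615102 covered the whole gene. In the other lists the nearest peak began 835 bp (liver 1), 985 bp (liver 2) and 1035 bp (yolk sac 2) past the start, beyond the end of the gene.

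Ribosomal protein genes have many retroposed copies, which share their sequence and make the assignment of reads between copies uncertain. Of 292 genes of a pseudogene type with an Rpl or Rps symbol, 4, 2, 10 and 9 had a peak at their start in liver 1, liver 2, yolk sac 1 and yolk sac 2. These are 1.37%, 0.685%, 3.42% and 3.08%, beside 1.08%, 0.996%, 2.35% and 1.75% of all 10236 processed pseudogenes. In all, 13 had a peak in at least 1 list, and only Rpl29-ps2 had a peak in all 4 lists, with a start of the coding gene Akr1e1 within 1000 bp. None of the 6 protein-coding genes named -ps was called.

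Peaks at ribosomal protein genes were wider in liver than in yolk sac, while peaks at promoters as a whole were not. The members' median peak width was 2052 bp in liver 1, 1952 bp in liver 2, 1802 bp in yolk sac 1 and 1602 bp in yolk sac 2. Over all called protein-coding genes it was 1652, 1502, 1702 and 1552 bp. The members' mean over libraries was 2002 ± 70.7 bp in liver and 1702 ± 141 bp in yolk sac (SD of 2 library medians), a difference of 300 bp. The difference over all genes was -50 bp. Both liver medians of the members lay above both yolk sac medians, yet 2 libraries against 2 allow no exact two-sided permutation p below 0.33, so that no result here can pass a threshold of 0.05. In liver 63 of 80 (liver 1) and 65 of 80 members (liver 2) were wider than the median promoter. In yolk sac 45 of 81 and 41 of 80 were. The first library of each tissue had the wider peaks: liver 1 exceeded liver 2 in 51 of 80 members, and yolk sac 1 exceeded yolk sac 2 in 71 of 80. Over all genes called in all 4 lists these were 8192 and 9434 of 11805. The members' widths differed in steps of 50 bp.

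**Figure D2:**
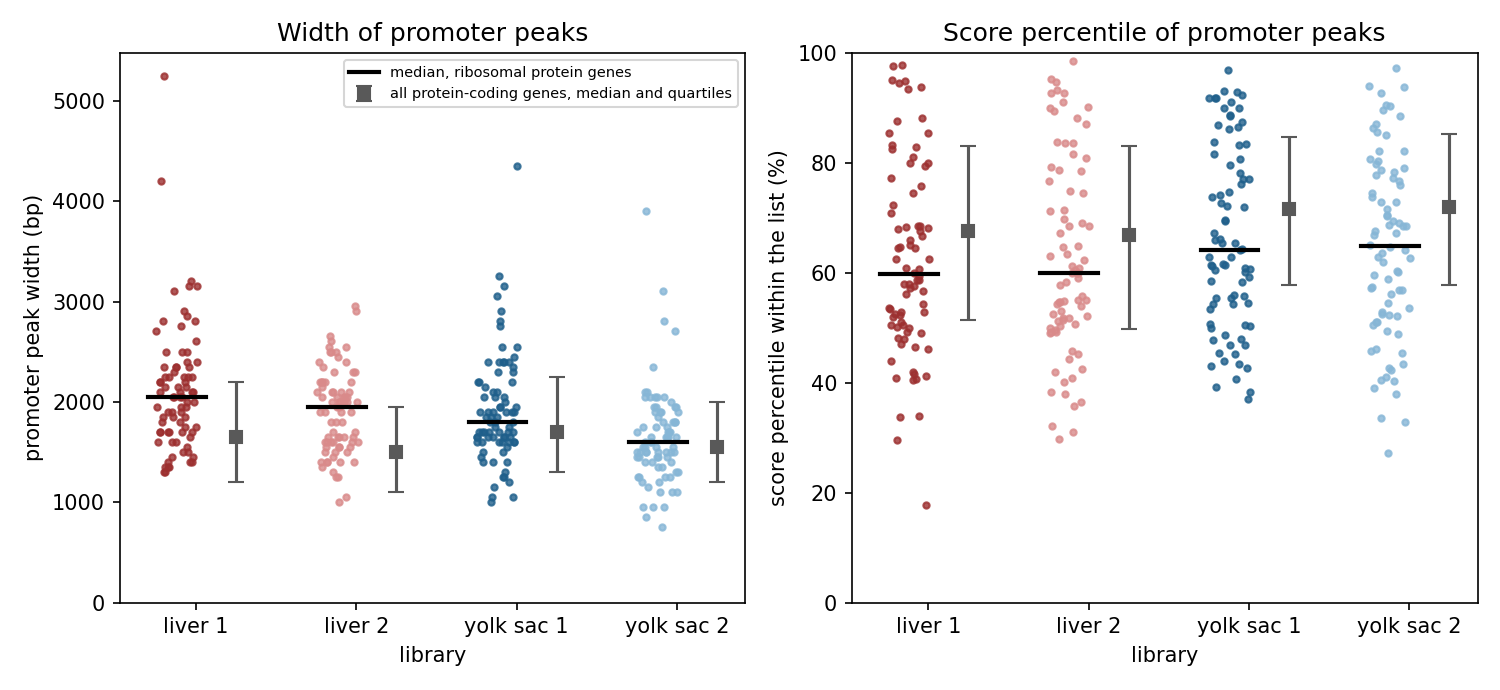
Promoter peak width (left, bp) and score percentile (right, %) of each called ribosomal protein gene (points) in each library, with the members' median (bar) and the median and quartiles of all called protein-coding genes (square and whiskers). The members' median width runs from 2052 bp in liver 1 to 1602 bp in yolk sac 2, and their median percentile lies below that of all promoters in all 4 libraries.

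The members' peaks differed from those of all genes and of short genes mainly in their reach downstream of the start, which translation factors nearly shared. Measured from the principal start, the peaks reached a median of 1387.5 bp (liver 1), 1307.5 bp (liver 2), 1163 bp (yolk sac 1) and 930.5 bp (yolk sac 2) downstream. Over all called genes the downstream reach was 923, 825, 939 and 843 bp, and over genes of at most 6000 bp it was 899, 805.5, 935 and 822 bp. For translation factors it was 1373, 1177, 1042 and 910 bp, near the members. For ribosome biogenesis factors it was 888, 761.5, 707 and 634 bp, and for mitochondrial ribosomal protein genes 864, 746, 790 and 727.5 bp. Upstream, the members reached 642.5, 579, 689 and 608.5 bp, and all genes 654, 590, 688 and 624 bp. The tissue difference of the members was 301 bp downstream (1348 ± 56.6 bp in liver, 1047 ± 164 bp in yolk sac) and -38.0 bp upstream (611 ± 44.9 bp and 649 ± 56.9 bp; SD, n = 2). Translation factors had a similar downstream difference of 299 bp, and ribosome biogenesis factors had 154 bp. Ribosomal protein genes are short, with a median length of 3289 bp against 17425 bp for all genes. A single peak thus covered a median of 39.5%, 37.0%, 36.1% and 29.5% of the gene. Of members called in all 4 lists, 31 of 80 reached further downstream in both liver libraries than in both yolk sac libraries (background 22.4%), and 9 of 80 the other way (background 30.9%).

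**Figure D3:**
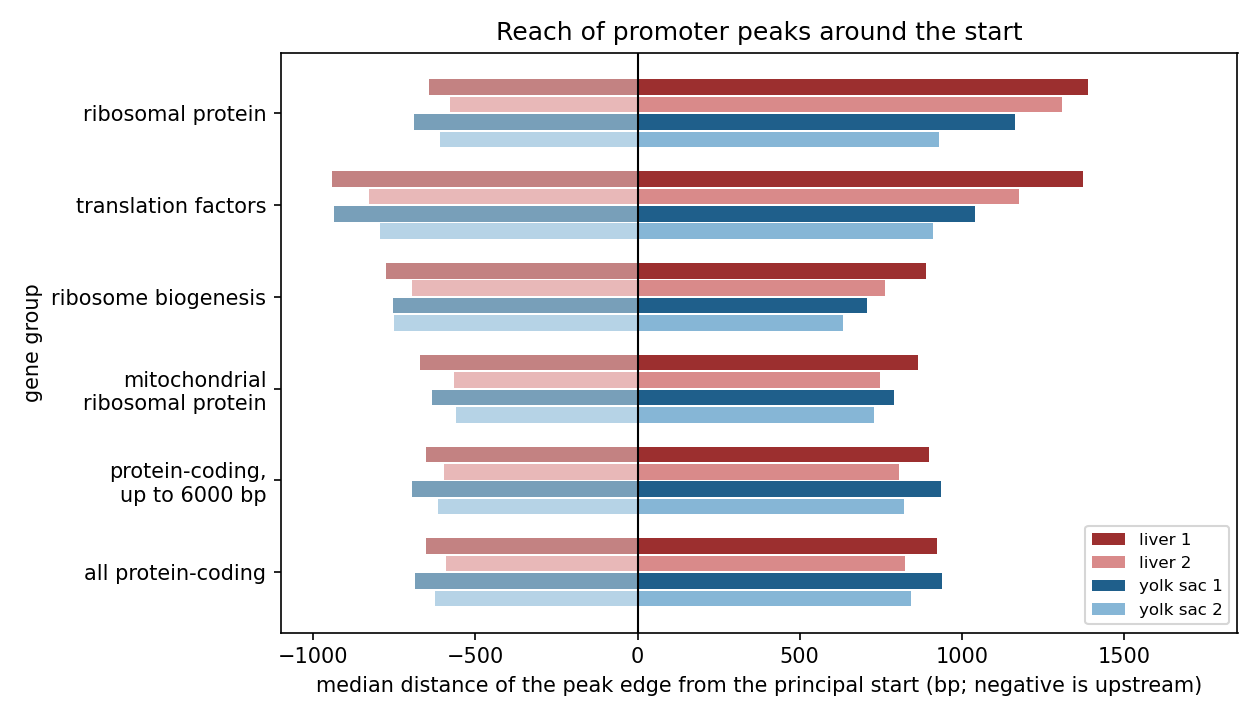
Median distance in bp from the principal start to the upstream edge (negative) and the downstream edge (positive) of the promoter peak, for 6 gene groups and 4 libraries. The ribosomal protein genes reach 1387.5 and 1307.5 bp downstream in liver against 923 and 825 bp for all genes, and differ little from them upstream.

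Gene by gene, 29 of 80 members had both liver widths above both yolk sac widths, or 36.2%, where the background over 11805 genes called in all 4 lists was 20.9%. In 6 of 80 members, or 7.5%, both yolk sac widths were above both liver widths, where the background was 34.5%. The large subunit had 18 of 45 wider in liver and 2 of 45 wider in yolk sac, and the small subunit 10 of 30 and 4 of 30. The split was similar in translation factors, with 10 and 1 of 27, and in ribosome biogenesis factors, with 14 and 5 of 32, and smaller in mitochondrial ribosomal protein genes, with 18 and 10 of 77. Genes of at most 6000 bp had 297 and 558 of 1490. The 4 other ribosome subunit genes outside the member list had 0 and 1. Their median widths were 2002 and 1777 bp in liver and 2277 and 1952 bp in yolk sac. Their median difference per gene, liver minus yolk sac, was 162.5 bp. Leaving out a library loosens the rule of no overlap, since a single library then stands for its tissue. The shares over all genes rose as well, so the counts do not isolate the part of any one library. In each case the members' share that was wider in liver exceeded the share over all genes. Without yolk sac 1, 60 of 80 members were wider in liver (37.7% of all genes), and without liver 2, 50 of 80 were (38.8%). Without liver 1, 36 of 80 were wider in liver (22.5% of all genes) and 15 of 80 in yolk sac (52.3%). Without yolk sac 2, 29 of 80 were wider in liver (22.7% of all genes) and 20 of 80 in yolk sac (51.2%).

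**Figure D4:**
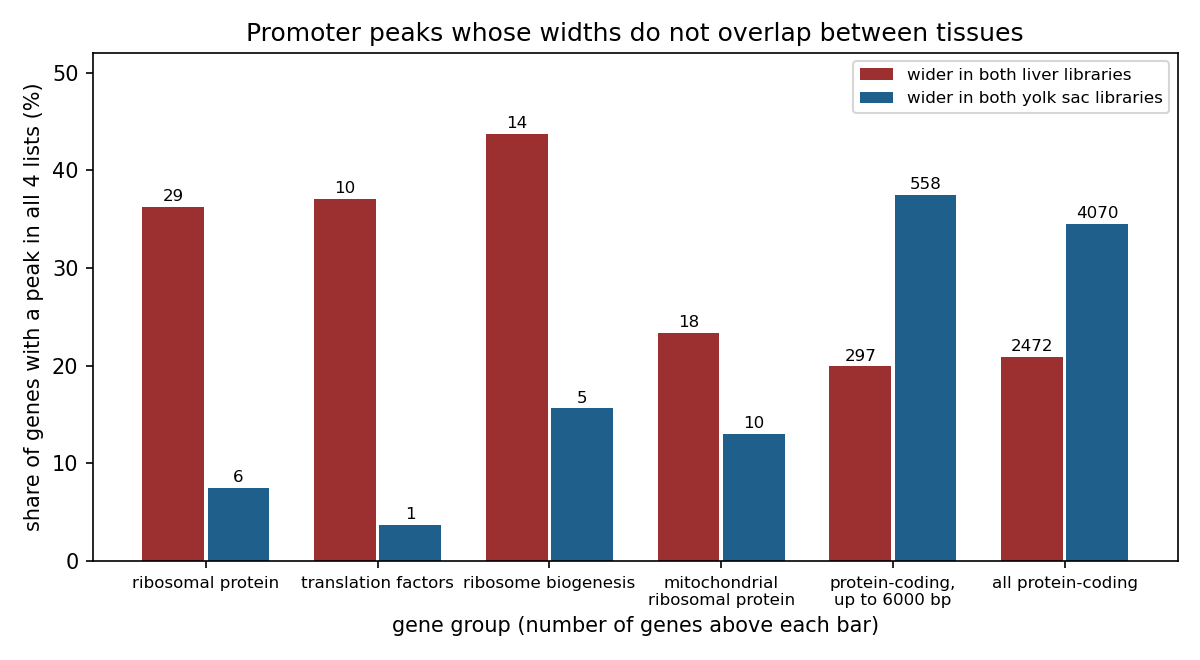
Share of genes called in all 4 lists (y axis, %) whose promoter peak was wider in both liver libraries than in both yolk sac libraries, or the reverse, for 6 gene groups, with the number of genes above each bar. The ribosomal protein genes show 29 wider in liver and 6 wider in yolk sac, and all protein-coding genes 2472 and 4070.

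The largest width differences toward liver were at Rpl28, Rpl18, Rpl37a, Rpl14 and Rps9. The peak of Rpl28, a large subunit protein (7, 4792874 to 4795066, plus strand; start shown above), was 3152 bp in liver 1, 1952 bp in liver 2, 1402 bp in yolk sac 1 and 1152 bp in yolk sac 2. The groups did not overlap, and liver 1 was far above the other liver library. The mean difference was 1275 bp (2552 ± 849 bp in liver, 1277 ± 177 bp in yolk sac) with an exact permutation p = 0.33, and it was 675 bp without liver 1 and 1875 bp without liver 2. The upstream edge of this peak was nearly the same in the 4 lists, at 573, 573, 573 and 523 bp, so that the difference lay downstream. Rpl37a, a zinc-binding large subunit protein (1, 72711290 to 72713813, plus strand), had widths of 2802 and 2502 bp in liver and 1602 and 1352 bp in yolk sac. The liver replicates of this gene were close, and the mean difference of 1175 bp was larger than the spread of either tissue. Rpl14 had 2352 and 2202 bp in liver and 1652 and 1252 bp in yolk sac, and Rps9, a small subunit protein, had 2252 and 2302 bp against 1602 and 1502 bp. Rpl18 had 4202 bp in liver 1, where a single peak spans 2 annotated starts that have separate peaks in the other lists, and 2402, 2202 and 1902 bp elsewhere. Without liver 1 its difference was 350 bp in place of 1250 bp.

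The 6 members wider in yolk sac included Rps14, Rps16, Rpl8, Rps15 and Rpl24. Their mean differences, liver minus yolk sac, were -2150, -550, -350, -225 and -200 bp in that order. Rps16 had 1702 and 1702 bp in liver and 2452 and 2052 bp in yolk sac. Rpl8 had 1402 and 1552 bp against 1902 and 1752 bp. Both are subunit genes whose tissue values did not overlap, in the direction opposite to most members. Rps15 had 1402 and 1402 bp against 1702 and 1552 bp, and Rpl24 had 1502 and 1502 bp against 1702 and 1702 bp. Rps14, a small subunit protein whose loss is tied to the anaemia of the 5q- syndrome, had 1852 and 2102 bp against 4352 and 3902 bp. In 3 of the 4 lists that value belongs to a peak at a far upstream start of the gene model, which scored above the peak at the principal start. At the principal start the widths were 2002, 2102, 2052 and 1952 bp and the difference was 50 bp, with overlap between tissues.

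Among members called in all 4 lists, the widest mean peaks were at Rps14, Rpl13a, Rpl7, Rpl41 and Rpl18. Rpl41, which encodes the shortest protein of the large subunit (10, 128548114 to 128549305, minus strand), had 2852, 2952, 3152 and 2702 bp in liver 1, liver 2, yolk sac 1 and yolk sac 2. These peaks exceeded its length of 1192 bp, and Rpl41 was covered whole in all 4 lists. Rpl13a had 3102, 2552, 3252 and 3102 bp, with 4 small nucleolar RNAs in its introns. Rpl7 had 3202, 2902, 3052 and 2802 bp, of which 2340, 2090, 2140 and 1890 bp lay upstream of its start, unlike most members. The narrowest were Rpl3, Rpl17, Rpl23a, Rps19bp1 and Rplp2. Rpl3, a core protein of the large subunit, had 1352, 1302, 1052 and 752 bp at its highest-scoring peak, which sits at an upstream start. The peak at its principal start measured 2702, 2752, 1602 and 1552 bp, wider in both liver libraries. Rplp2, of the stalk that recruits elongation factors, had 1702 and 1602 bp in liver and 1002 and 952 bp in yolk sac. Rps2 had 5252 bp in liver 1 and 1452, 1502 and 1502 bp elsewhere. It falls outside the rule for widths and is given because its liver 1 peak runs 4642 bp downstream, past the gene's end.

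The promoter peaks of ribosomal protein genes did not rank high in score. Their median percentile among all peaks of a list was 59.8 (liver 1), 59.96 (liver 2), 64.1 (yolk sac 1) and 64.9 (yolk sac 2). Over all called protein-coding genes it was 67.6, 67.0, 71.6 and 72.0. Ranked among promoter peaks alone, the members' medians were 42.3, 44.1, 42.4 and 42.9, against 53.7, 53.9, 55.3 and 55.2. The members spread from 17.7 to 97.8 in liver 1 and from 27.2 to 97.2 in yolk sac 2. In liver 1, liver 2, yolk sac 1 and yolk sac 2, the members in the top 10% of called promoters numbered 7, 4, 1 and 3, and those in the bottom 10% numbered 4, 3, 9 and 11. Width and percentile had little relation across the 80 members called in all 4 lists (Pearson r = 0.12, Spearman rho = 0.15 between means over the same 4 libraries). Mitochondrial ribosomal protein genes had a mean of library medians of 74.8 ± 2.65 for liver and 74.8 ± 2.37 for yolk sac, above the cytosolic members' 59.9 ± 0.137 and 64.5 ± 0.593 (SD, n = 2). Other groups lay nearer to the members. Translation factors had 67.2 ± 2.08 and 68.8 ± 2.60, and ribosome biogenesis factors 64.4 ± 7.14 and 72.5 ± 0.402. Other genes of at most 6000 bp had 65.4 ± 0.589 and 68.2 ± 0.223.

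The order of the members by score was similar in the 2 libraries of a tissue and differed between tissues. Across the 80 members, percentiles had r = 0.78 between liver libraries and r = 0.86 between yolk sac libraries, but r = 0.13 to 0.30 between a liver and a yolk sac library. Over all 11805 genes the values were 0.70 and 0.71 within tissues and 0.23 to 0.35 between them, so the drop is not particular to the members. In 35 of 80 members both yolk sac percentiles were above both liver percentiles (background 34.4%), and in 23 of 80 the reverse held (background 22.1%). Ranked among promoter peaks alone, the counts were 26 (background 28.1%) and 28 (background 28.5%). With lists of equal length they were 9 and 37 of 60 members, where 12.9% and 52.3% of all genes did the same. The direction over the members as a whole thus turned with the peaks that were ranked, as it did over all genes.

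**Figure D5:**
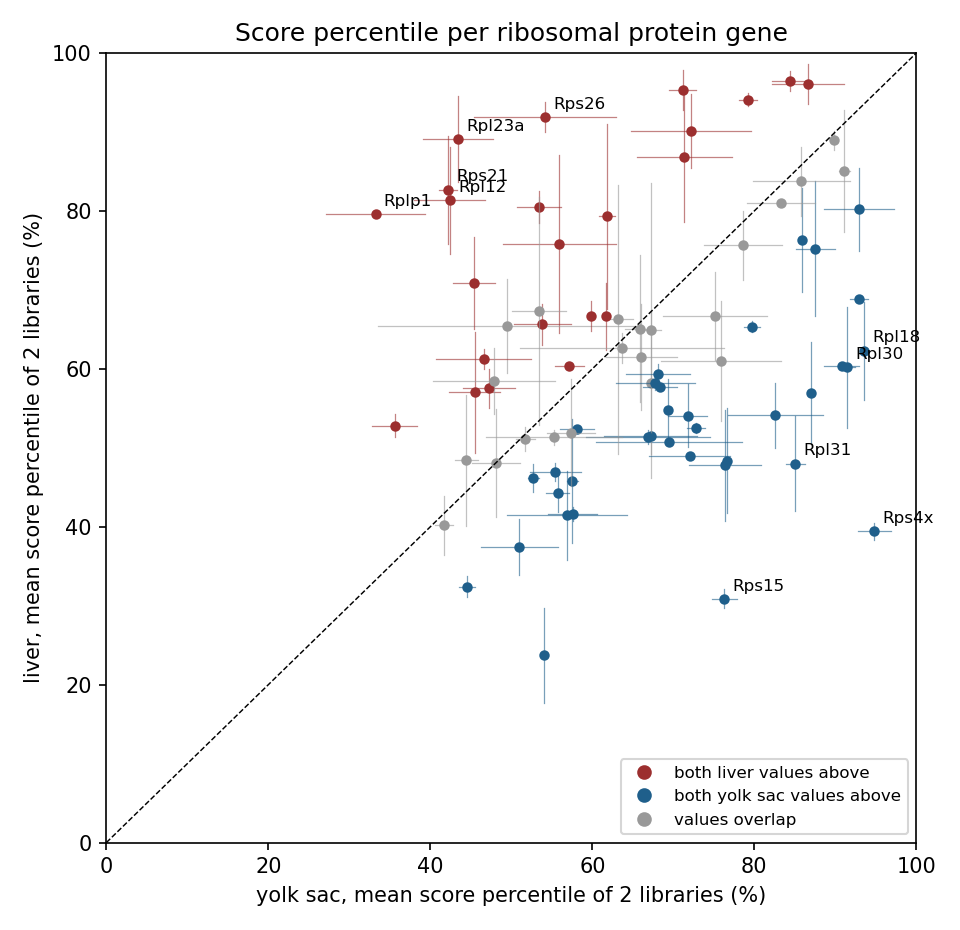
Mean score percentile of each ribosomal protein gene in yolk sac (x axis, %) and liver (y axis, %), with lines to the 2 library values of each tissue, the diagonal of equal values, and names for the 5 members with the largest difference in each direction. Points lie far from the diagonal on both sides, from Rplp1 (79.6 in liver, 33.2 in yolk sac) to Rps4x (39.4 in liver, 94.8 in yolk sac).

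Rps4x, the X-linked gene of a small subunit protein (X, 102184941 to 102189394, minus strand; start shown above), had the largest difference toward yolk sac. Its percentile was 40.5 in liver 1, 38.4 in liver 2, 96.9 in yolk sac 1 and 92.8 in yolk sac 2. The groups lay far apart, with liver at 39.4 ± 1.49 and yolk sac at 94.8 ± 2.90 on average (SD, n = 2; p = 0.33 by the exact permutation test). The difference of -55.4 points was -51.6 with lists of equal length. Its widths overlapped, at 1602, 1652, 1602 and 1302 bp. Rps15, a small subunit protein (10, 80292453 to 80294114, plus strand), had 29.7 and 32.1 in liver and 74.8 and 77.8 in yolk sac, and was also wider in yolk sac. Rpl31 had 42.0 and 54.0 against 83.9 and 86.3, and Rpl30 had 67.9 and 52.5 against 92.4 and 90.4. Rpl18 had 56.1 and 68.5 against 93.1 and 93.9, although its peak was wider in liver. With lists of equal length the difference was -24.1 at Rps15 and -23.7 at Rpl31, in place of -45.4 and -37.1. From the most upstream start alone it was -4.77 at Rpl18, in place of -31.2.

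Toward liver, the largest percentile differences were at Rplp1, Rpl23a, Rps21, Rpl12 and Rps26. Rplp1, a stalk protein (9, 61913284 to 61914542, minus strand), had 80.0 and 79.2 in liver, against 39.3 and 27.2 in yolk sac. The means were 79.6 ± 0.59 and 33.2 ± 8.56, a difference of 46.4 points. Its width overlapped between tissues, at 1452 and 1252 bp against 1402 and 1202 bp. Rps26, a small subunit protein at the mRNA exit (10, 128624534 to 128626747, minus strand), had 93.8 and 90.0 in liver and 62.9 and 45.4 in yolk sac. Its difference of 37.7 points became 78.6 with lists of equal length. Rpl12, which sits at the base of the stalk, had 88.1 and 74.5 against 46.8 and 38.0. Rpl23a, at the exit of the peptide tunnel, had 94.5 and 83.7 against 47.7 and 39.0, and Rps21 had 75.8 and 89.5 against 43.3 and 41.0. With lists of equal length, Rplp1, Rpl12, Rpl23a and Rps21 had no peak left in at least 1 list.

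The members with the highest mean percentiles were Rpl7l1, Rpl3, Rplp0, Rpl5 and Rpl13a, and Rpl8, Rpl27, Rps2 and Rpl17 were among the lowest. The place of Rpl3 rests on its upstream peak. Its peak at the principal start had 58.8 and 52.1 in liver, below 75.6 and 73.7 in yolk sac. Rplp0, the stalk's base protein, had 87.7, 90.2, 90.1 and 89.6, with overlap between tissues. The 3 stalk genes therefore differed: Rplp1 was higher in liver, Rplp0 overlapped, and Rplp2 was below the members' median in all 4 lists at 41.3, 55.0, 45.1 and 51.1. Rpl5 and Rpl11 bind the 5S RNA and can hold back the p53 regulator Mdm2. Rpl5 had 77.3, 92.8, 91.8 and 90.5, and Rpl11 had 57.6, 57.8, 66.2 and 70.4. Rpl27 was lowest of all in liver, at 17.7 and 29.7, and stood at 54.4 and 53.7 in yolk sac. Rps6, the small subunit protein that S6 kinases phosphorylate, had 41.7 and 55.0 in liver and 77.2 and 76.1 in yolk sac. Rpl38, known for its part in the translation of Hox mRNAs, had 50.02 and 58.3 against 88.5 and 76.8. In Rpl6 the percentiles were 85.4 and 74.98 against 88.6 and 97.2, and the widths 1302 and 2002 bp against 1202 and 1252 bp.

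The 19 genes tied to Diamond-Blackfan anaemia, a list chosen with earlier results of these data known, were all called in all 4 lists. Their median percentile was 58.0 and 55.8 in liver and 71.9 and 69.4 in yolk sac. In 12 of 19 both yolk sac values were the higher (34.4% of all genes), and in 3 of 19 both liver values (22.1%). By width, 7 of 19 were wider in liver (20.9% of all genes) and 0 wider in yolk sac (34.5%), which is near the share of all 80 members. Rps19, the gene most often mutated in the disease, had percentiles of 49.0 and 49.0 in liver and 77.0 and 67.0 in yolk sac, and widths of 2052 and 2352 bp against 1902 and 1752 bp. Rpl35a had 66.6 and 83.7 against 89.9 and 85.2. Rps24 went the other way, with 62.5 and 60.03 in liver and 40.8 and 52.5 in yolk sac, as did Rps26. The percentile at the highest-scoring peak of Rps14 overlapped, at 72.3 and 61.2 against 81.6 and 68.7. At its principal start it was 67.8 and 61.2 in liver and 43.9 and 50.6 in yolk sac, without overlap.

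Rpl22, whose loss in mice impairs T cells, had percentiles of 53.4, 68.6, 83.3 and 68.5 in liver 1, liver 2, yolk sac 1 and yolk sac 2, and its paralog Rpl22l1 had 48.1, 45.8, 58.6 and 52.3. Rps27 had 40.8 and 54.8 in liver and 71.9 and 80.8 in yolk sac, and Rps27l, a target of p53, had 66.0 and 64.6 against 80.7 and 78.7. Both of these pairs have at least 1 member whose tissue values did not overlap. Rpl36a had 68.2 and 63.1 against 50.3 and 57.3, and Rpl36al had 83.3 and 49.2 against 61.3 and 65.0. Rpl7 had 46.1, 83.6, 66.0 and 68.5, with the 2 liver libraries far apart, and Rpl7l1 had 93.5, 98.6, 91.1 and 82.2. Among called genes with an uncalled paralog, Rpl3 had 97.7, 95.2, 86.6 and 82.2 at its upstream peak, Rpl10 had 49.2, 67.2, 67.2 and 67.3, and Rpl39 had 68.3, 54.8, 61.6 and 70.5. Rps19bp1, which encodes a nucleolar protein that binds Rps19 and is no subunit, had 85.4 and 94.8 against 79.6 and 64.8.

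Some features of the genes were not used by the symbol rule. Small nucleolar RNAs lay inside 29 of the 85 members (34.1%), 55 in all, against 1.18% of all protein-coding genes that hold any. They also lay inside 8 of 27 translation factors (29.6%) and 7 of 32 ribosome biogenesis factors (21.9%), but inside 0 of 78 mitochondrial ribosomal protein genes. A gene on the other strand that starts up to 1000 bp upstream was present at 19 members, or 22.4%, against 13.5% of all genes, 22.2% of translation factors, 37.5% of ribosome biogenesis factors and 35.9% of mitochondrial ribosomal protein genes. The promoter peak also served another protein-coding gene in 20, 18, 19 and 19 members in liver 1, liver 2, yolk sac 1 and yolk sac 2 (25%, 22.5%, 23.5% and 23.8%), near the 21.9%, 21.1%, 19.9% and 20.2% of all called genes. For these the peak cannot be assigned to the ribosomal protein gene alone. A further peak at the gene's end was present in 18 of 80, 14 of 80, 21 of 81 and 16 of 80 members (22.5%, 17.5%, 25.9% and 20.0%), against 13.4%, 13.5%, 17.02% and 13.9% of other genes of at most 6000 bp. A single peak covered the whole gene in 5, 2, 4 and 2 members (6.25%, 2.5%, 4.94% and 2.5%), against 9.07%, 7.70%, 8.62% and 6.57% of other genes of at most 6000 bp. Apart from Rpl36 these were Rps21, Rps27, Rpl28, Rpl41 and Rps29, the last named after its values were seen.

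Erythroid, mesenchymal and yolk sac endoderm markers moved with tissue beside the members, while hepatic markers were called at about the same number of genes. Erythroid markers such as Gata1 and Klf1 were called at 9 and 9 of 9 genes in liver and at 2 and 2 of 9 in yolk sac. Mesenchymal markers such as Col1a1 were called at 8 and 9 of 10 in liver and 10 and 10 of 10 in yolk sac, and yolk sac endoderm markers such as Cubn at 8 and 6 against 10 and 10 of 10. Hepatic markers, of which Afp and Ttr are also on the yolk sac endoderm list, were called at 8 and 7 against 7 and 7 of 10. These were partly different genes: 5 of the 10 were called in all 4 lists, 2 in both liver lists alone and 1 in both yolk sac lists alone. The median width at mesenchymal markers was 1202 and 1652 bp in liver and 4502 and 4052 bp in yolk sac, and at erythroid markers it was 3952 and 3652 bp in liver. The part of cell makeup in the widths and percentiles of the ribosomal protein genes was not tested.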

How the data were processed

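PRO-seq peak lists of 4 libraries (2 liver, 2 yolk sac) were used. The deposited score of each peak is the authors' value, without a stated scale. Per the submitters' processing notes, Bowtie2 and bedtools were used and the build was mm10, with neither role nor version. The file names carry dREG. Its version, filters and read counts are not given in the sources used here. Lists were made per library. No file gives counts, so no interval for counting error could be computed.

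Positions were made 1-based and joined to GENCODE vM21 (13 mitochondrial coding genes left out) in Python 3.11.15 (pandas 2.3.3, numpy 2.4.6, scipy 1.17.1). Figures were drawn with matplotlib 3.10.9. A gene's promoter peak was the highest-scoring peak within 500 bp of any annotated start. Its width and its percentile in the list were taken, and the counts of genes whose tissue values do not overlap were set beside the same share over all protein-coding genes. Reach was measured for peaks at the principal start. Single genes were compared by the exact two-sided permutation test over the 6 assignments of 4 libraries, which gives at least 0.33. The promoter calls and the rule of no overlap were tested on simulated data whose groups were set clearly apart. The steps for reach, sequences, shared peaks and gene cover were not tested in this way.

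The members and lists were chosen with earlier results of these data known. Genes were named by a rule: those without a peak in a list, the 5 at each extreme of mean width, mean percentile and tissue difference, and a set list of stalk, anaemia and paralog genes. Other windows, starts, peak choices, list lengths, rankings, member sets, left-out libraries and a replicate block were tried. Some genes that the rule names are not reported here.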

Additional observations from a re-analysis of the deposited data

How the results depend on the processing

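The members' width difference (300 bp, liver minus yolk sac) kept its direction under all alternatives tried and ranged from 200 to 400 bp when a library was left out. The mean share of members called, 94.4%, was 95.0% with a window of 1000 bp, 90.6% from the most upstream start, 85.9% with lists of equal length, 74.7% with the higher-scoring 50% of each list and 99.0% over canonical subunits. The percentile difference of -4.63 points reversed to 16.4 with lists of equal length and to 0.593 among promoter peaks, and was -8.53 with the higher-scoring 50%. The counts higher in liver and in yolk sac by percentile, 23 and 35, were 37 and 9 with lists of equal length and 12 and 20 with the higher-scoring 50%, where the counts by width were 14 and 3. With the higher-scoring 50% the shares over all genes were 26.5% and 24.8% by percentile (members 27.9% and 46.5%), and 23.5% and 28.1% by width. These stricter lists hold fewer members in all 4 lists, 60 and 43. Leaving out a library gave 29 to 60 members wider in liver, 6 to 20 wider in yolk sac, 25 to 29 higher in liver and 40 to 44 higher in yolk sac. Over all genes the shares by width were then 22.5% to 38.8% for liver and 36.1% to 52.3% for yolk sac. By percentile they were 31.3% to 34.3% and 43.0% to 48.7%, beside 31.25% to 36.25% and 50% to 55% of the members. The width difference at Rps14 reversed from -2150 to 50 bp at the peak nearest to a start, and also at the principal start, an alternative chosen after seeing the data. The cause of these changes was not tested.

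The labels do not pair the replicate numbers across tissues. The correlation of same-numbered libraries' deviations from their tissue means was -0.09 for width and -0.08 for percentile over 80 members, and -0.01 for both over all genes. With the replicate block, 44 members were wider in liver and 8 in yolk sac (29.7% and 42.2% of all genes), and 25 and 38 were higher in percentile (27.7% and 40.4% of all genes). Unknown depth limits all comparisons of list length, calls and ranks.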
